A study of Mus musculus with 8 samples.

Results

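The genes that write, maintain and erase cytosine methylation were examined in mouse brain, by name: Uhrf1, Uhrf2, Dnmt1, Dnmt3a, Dnmt3b, Tet1, Tet2, Tet3 and Tdg. Rows for 8 of these 9 genes, of 17613 in the deposited table, were read by gene name, and all 8 passed the filter on low counts; Uhrf1 is not analysed here. The samples were 4 libraries labelled Uhrf2 KO (KO) and 4 labelled wild type (WT), made from polyadenylated RNA of C57BL/6 mouse brain. The title of the series ties UHRF2, a nuclear protein, to local methylcytosine and to spontaneous seizures. The labels give no age, sex, brain region or knockout allele, and do not say whether the libraries came from separate animals, so the p-values measure the spread between these libraries.

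Methylation of cytosine in CG dinucleotides is set de novo by DNMT3A and DNMT3B and copied to the new strand after replication by DNMT1. UHRF1 and its paralog UHRF2 carry an SRA domain that grips a methylated or hydroxymethylated base, and UHRF1 brings DNMT1 to hemimethylated DNA. The TET dioxygenases oxidise methylcytosine stepwise, and the glycosylase TDG cuts out the most oxidised forms so that base excision repair can restore cytosine. Neurons, which no longer divide, are known for abundant hydroxymethylcytosine and for methylation by DNMT3A outside CG sites.

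The KO and WT libraries did not overlap in Uhrf2, Tet1 and Tet2, 3 of 8 genes, against 7.67% of all tested genes. Of these, Tet1 and Tet2 did not pass the edgeR test described below. The 3 genes differ in how many CG dinucleotides, the sites that can carry methylation, stand before the start sites that RefSeq lists. Their promoters (RefSeq, GRCm38.p6) are shown for that reason, as the 250 bases before the annotated start, 5′ to 3′ on the strand of the gene, with each CG in capitals. The Uhrf2 stretch is chr19:30030263-30030512 on the plus strand, that of Tet1 is chr10:62887325-62887574 on the minus strand, and that of Tet2 is chr3:133544391-133544640 on the minus strand. The starts used for Tet1 and Tet2 are those RefSeq lists and lie inside the longer GENCODE genes, so their bases describe those starts only.
Uhrf2: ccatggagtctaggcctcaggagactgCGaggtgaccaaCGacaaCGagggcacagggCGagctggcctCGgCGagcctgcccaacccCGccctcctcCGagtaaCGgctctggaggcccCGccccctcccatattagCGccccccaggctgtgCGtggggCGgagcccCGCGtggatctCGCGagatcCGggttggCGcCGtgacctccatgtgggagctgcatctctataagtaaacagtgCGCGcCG
Tet1: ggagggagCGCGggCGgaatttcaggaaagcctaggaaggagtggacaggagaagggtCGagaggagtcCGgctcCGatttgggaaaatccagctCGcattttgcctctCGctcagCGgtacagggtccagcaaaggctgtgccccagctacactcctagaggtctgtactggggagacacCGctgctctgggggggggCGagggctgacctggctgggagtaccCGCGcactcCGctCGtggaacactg
Tet2: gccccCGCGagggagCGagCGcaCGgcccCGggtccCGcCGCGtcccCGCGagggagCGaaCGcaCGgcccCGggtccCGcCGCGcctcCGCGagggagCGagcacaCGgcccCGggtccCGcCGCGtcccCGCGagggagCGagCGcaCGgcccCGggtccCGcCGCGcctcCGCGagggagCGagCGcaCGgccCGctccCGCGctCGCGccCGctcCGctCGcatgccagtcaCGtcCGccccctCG

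These stretches hold 23, 15 and 51 CG dinucleotides in Uhrf2, Tet1 and Tet2. In the whole window of 300 bases, from 250 before to 50 after the start, the numbers were 28, 17 and 57. A promoter was found for 11483 genes of the count table, taking the start richest in CG where RefSeq lists several, and 99.6% of them hold at least 1 CG, which reads the same on both strands. The median was 21. As many CG as in Uhrf2 occur in 30.0% of these promoters, as many as in Tet1 in 64.7%, and as many as in Tet2 in 0.340%. Among the other genes Tdg, Tet3 and Dnmt3b had 26, 22 and 30, while the 3 starts listed for Dnmt1 ran from 2 to 33 and the 3 for Dnmt3a from 18 to 47. These counts describe the reference sequence and not the methylation of these brains.

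Library totals ran from 11891350 to 19773921 counts. Of 15902 genes tested between KO and WT with edgeR's quasi-likelihood test, 228 passed an adjusted p of 0.05 (Benjamini-Hochberg, over all tested genes), which is 1.43%, 182 of them higher in KO libraries and 46 lower. Leaving out WT replicate 3 gave 110 called genes, and leaving out KO replicate 3, 4 or 2 gave 130, 146 or 324. All 5 neuronal markers checked (Rbfox3, Snap25, Syt1, Tubb3, Map2) were detected in every library, at a summed level of 5450 to 6009 CPM (counts relative to library size) in KO and 5335 to 5785 CPM in WT libraries. The 2 libraries numbered 1 stood apart from the other 6 on the second principal component (19.8% of the variance), at 13.1 in KO and 21.0 in WT, where the others lay from -9.02 to -2.49. Without this pair, 162 genes were called. The fold changes of Uhrf2 and the TET genes are therefore also given below without this pair.

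Uhrf2 was the only member called, and it was higher in the libraries labelled KO. Its level was 86.4, 88.6, 88.4 and 91.8 CPM in KO replicates 1 to 4, against 58.0, 47.7, 57.2 and 58.9 CPM in WT replicates 1 to 4. Every library labelled KO stood above every library labelled WT, and the lowest KO library exceeded the highest WT library by 46.8%. The means were 88.8 ± 2.23 CPM in KO and 55.4 ± 5.22 CPM in WT libraries (SD, n = 4 each). On the log2 scale KO exceeded WT by 0.68 (SE 0.06, 95% interval 0.56 to 0.80), or 1.60-fold, with an adjusted p of 5.45e-06 from edgeR. An exact two-sided permutation test of the CPM values gave p = 0.0286, the smallest that 4 against 4 libraries allow. By p, Uhrf2 ranked 2 among the 15902 genes. Of the 12481 genes with a mean over 5 CPM, 23 had a log2 fold change at least as large in size as that of Uhrf2, itself included.

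The label KO names this gene as knocked out, and its count per gene was higher under that label. The gene lies at chr19:30030513-30093722 on the plus strand (GENCODE M21, GRCm38). A count per gene does not separate reads inside a deleted part from reads outside it, and no source used here gives the deleted part. The groups are therefore called the libraries labelled KO and WT, and each direction below rests on those labels. Of the 3487 stretches of 50 bases in the longest coding Uhrf2 transcript, 0 occur in a transcript of another gene, and its exons overlap no other annotated gene. The counts behind the level were 1159 to 1672 per library in KO and 690 to 1145 per library in WT.

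**Figure D1:**
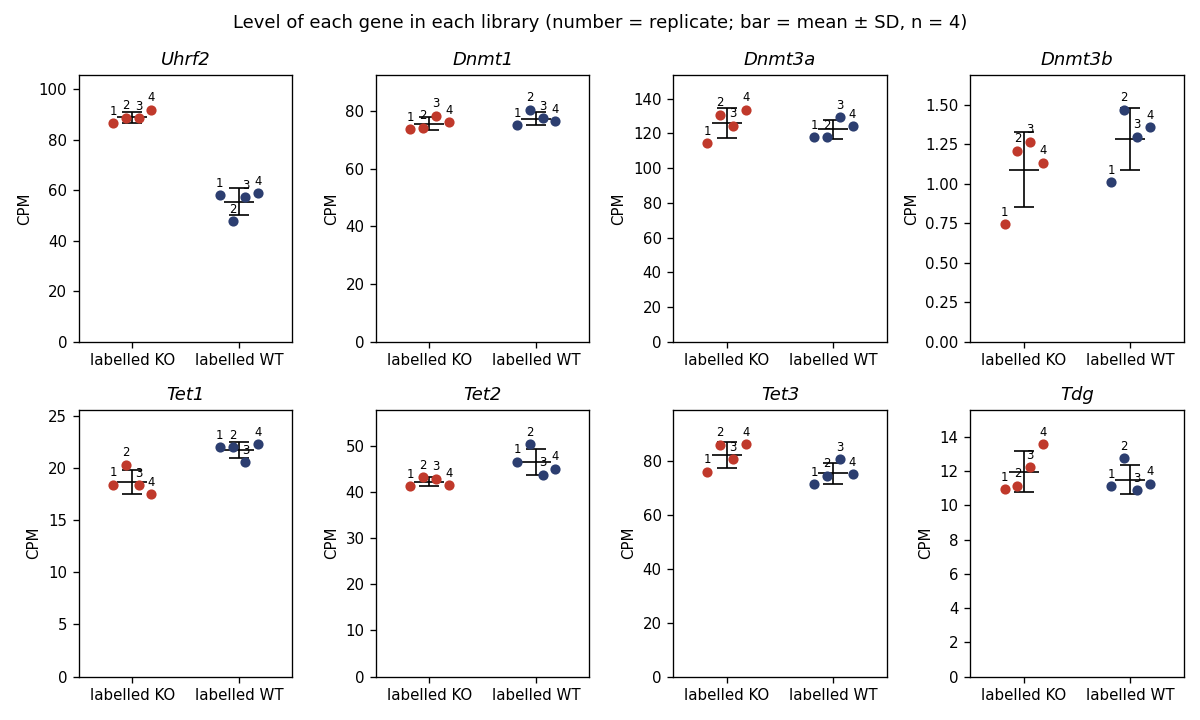
Level of each gene in CPM (vertical axes, each starting at 0) in the libraries labelled KO (red, left) and WT (blue, right), with the replicate number beside each point and the mean ± SD (n = 4) as bars. The KO points of Uhrf2 lie between 86.4 and 91.8 CPM, above all WT points, and those of Tet1 and Tet2 lie below all WT points by a narrow margin.

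The 2 nearest tested genes on either side of Uhrf2 did not pass the test. Gldc, which encodes glycine decarboxylase of the glycine cleavage system, lies on the opposite strand with its nearer end 4.72 kb beyond Uhrf2, and stood at 31.8 ± 1.80 CPM in KO and 31.4 ± 1.56 CPM in WT libraries (SD, n = 4 each, adjusted p = 0.944 by edgeR). The cytokine gene Il33, 69.8 kb before Uhrf2, stood at 84.8 ± 6.53 CPM in KO and 91.7 ± 6.01 CPM in WT libraries (adjusted p = 0.465). Farther off were Ranbp6, an importin family gene 218 kb before Uhrf2, and Prkg1, the cGMP-dependent kinase, 471 kb beyond it. Ranbp6 and Prkg1 differed in log2 by 0.04 (SE 0.06) and -0.09 (SE 0.15). The groups overlapped in these 4 genes.

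The 5 genes whose profile over the 8 libraries lay nearest to that of Uhrf2 were taken from 12480 others with a mean of at least 5 CPM. Nearness was the root mean square difference of log2 CPM after centring each gene on its mean. The root mean square deviation of Uhrf2 from its own mean was 0.353. Car12, a membrane carbonic anhydrase, was nearest at 0.106. Igsf9, an immunoglobulin superfamily protein of dendrites, followed at 0.120, the transcriptional corepressor Bcor at 0.133, the Nogo receptor homolog Rtn4rl1 at 0.138, and Lingo1, a co-receptor of the Nogo receptor, at 0.143. Lingo1 had the highest level of these, 293 ± 17.8 CPM in KO and 198 ± 12.7 CPM in WT libraries (SD, n = 4 each). Car12 stood at 45.7 ± 3.39 CPM in KO and 27.1 ± 3.32 CPM in WT libraries. Choosing genes by this profile fixes their direction, so their fold changes are given as a description, from 0.52 for Rtn4rl1 to 0.89 for Igsf9 on the log2 scale.

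None of the DNA methyltransferase genes passed the test. Dnmt1, the maintenance enzyme (chr9:20907209-20959888, minus strand), had 73.7, 74.3, 78.4 and 76.3 CPM in KO replicates 1 to 4, against 75.1, 80.5, 77.6 and 76.4 CPM in WT replicates 1 to 4. The groups overlapped, with 2 of 4 KO libraries below every WT library. Its fold change on the log2 scale was -0.03 (SE 0.04) at an adjusted p of 0.829 from edgeR, with a 95% interval from -0.13 to 0.06, so that a change beyond 0.916-fold or 1.04-fold lies outside the interval.

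Dnmt3a, the de novo enzyme of postnatal neurons (chr12:3806007-3914443, plus strand), had 114, 131, 124 and 134 CPM in KO replicates 1 to 4, against 118, 118, 129 and 124 CPM in WT replicates 1 to 4. The lowest and the highest of the 8 values were both in KO libraries. The fold change in log2 was 0.04 (SE 0.05), with a 95% interval from -0.07 to 0.15 and an adjusted p of 0.819 (edgeR). An antisense gene, Dnmt3aos, shares 133 of its 16642 exonic bases, and no source used here says whether the counting used strand.

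Dnmt3b, the other de novo enzyme, known for its role in the early embryo (chr2:153649450-153687730, plus strand), was counted 10, 19, 24 and 17 times in KO replicates 1 to 4, against 12, 24, 26 and 21 times in WT replicates 1 to 4. That is 0.746 to 1.27 CPM in KO and 1.01 to 1.47 CPM in WT libraries, where 3 counts correspond to between 0.150 and 0.252 CPM. Its fold change in log2 was -0.23 (SE 0.23) with an adjusted p of 0.749 (edgeR), and the 95% interval ran from -0.72 to 0.26, the widest of the 8 genes. At this depth the interval reaches a fall as large in size as the rise of Uhrf2. Of the 50-base stretches of its transcript, 11.5% also occur in Dnmt3c, a close paralog known from male germ cells, so its few counts may include reads of that gene.

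The TET genes had both signs, and none passed the test. Tet1 (chr10:62804570-62908996, minus strand), which carries a CXXC domain that binds CG-rich DNA, had 18.4, 20.3, 18.4 and 17.5 CPM in KO replicates 1 to 4, against 22.0, 22.0, 20.6 and 22.3 CPM in WT replicates 1 to 4. All KO libraries were below all WT libraries, but KO replicate 2 was only 1.26% below WT replicate 3. Means were 18.7 ± 1.19 CPM in KO and 21.7 ± 0.77 CPM in WT libraries (SD, n = 4 each). The difference in log2 was -0.22 (SE 0.07, 95% interval -0.36 to -0.07), with an adjusted p of 0.158 by edgeR and an unadjusted p of 0.00541.

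Tet2 (chr3:133463679-133545139, minus strand), which lacks that domain and is known as a tumour suppressor in blood, had 41.2, 43.1, 42.9 and 41.5 CPM in KO replicates 1 to 4, against 46.5, 50.2, 43.7 and 45.0 CPM in WT replicates 1 to 4. The KO values lay close together and all below the WT values, with 1.33% between the highest KO and the lowest WT library. In log2 the groups differed by -0.14 (SE 0.06, 95% interval -0.25 to -0.02), at an adjusted p of 0.300 (edgeR).

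Tet3 (chr6:83362373-83459084, minus strand), known as the enzyme that oxidises the paternal genome of the zygote, leaned the other way. It had 76.0, 86.0, 80.6 and 86.1 CPM in KO replicates 1 to 4, against 71.3, 74.5, 80.6 and 75.0 CPM in WT replicates 1 to 4. In 3 of the 4 KO libraries the level was above every WT library, while KO replicate 1 lay below WT replicate 3. KO replicate 3 was nearly tied with WT replicate 3, at 80.61 against 80.56 CPM. In log2 the difference was 0.12 (SE 0.05, 95% interval 0.01 to 0.23), and the adjusted p was 0.324 (edgeR).

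Tdg (chr10:82629828-82650799, plus strand), the glycosylase that acts after the TET enzymes, had 11.0, 11.1, 12.2 and 13.6 CPM in KO replicates 1 to 4, against 11.1, 12.7, 10.9 and 11.3 CPM in WT replicates 1 to 4. The groups overlapped, and the log2 fold change of 0.06 (SE 0.09, 95% interval -0.13 to 0.25, adjusted p = 0.858) became -0.003 without KO replicate 4. Its counts are uncertain, since 66.3% of the 50-base stretches of its transcript also occur in other annotated transcripts, among them Tdg-ps, Gm5597 and Gm9855. Glt8d2 on the opposite strand shares 367 of its 5374 exonic bases.

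In all, 1 of the 8 genes was called, against 1.43% of all tested genes, and that gene was higher, against 1.14% of tested genes called higher in the libraries labelled KO. The other 7 did not pass. The groups did not overlap in 3 of 8, against 7.67% of all tested genes. Uhrf2 was above, as were 4.28% of tested genes, and Tet1 and Tet2 were below, as were 3.4% of tested genes. An unadjusted edgeR p under 0.05 was found in 4 of 8 (Uhrf2, Tet1, Tet2 and Tet3), against 12.6% of all tested genes. Each of these counts includes Uhrf2, the gene that the label KO names. The median log2 fold change was 0.003 over the 8 genes and -0.005 over all tested genes, with 4 of the 8 positive and 4 negative.

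**Figure D2:**
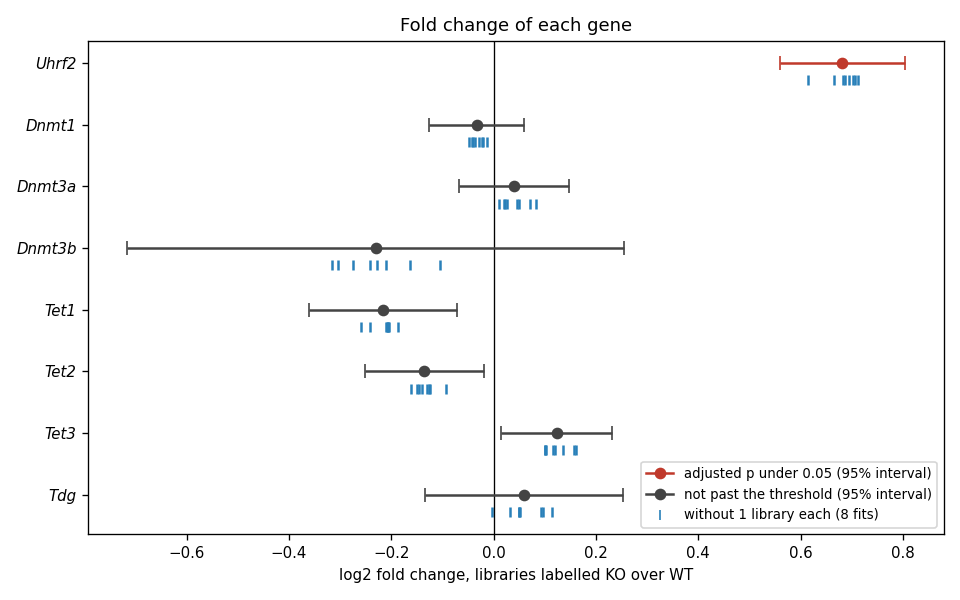
Log2 fold change, KO over WT by label (horizontal axis), with its 95% interval, in red where the adjusted p was under 0.05, and as blue ticks the values of the 8 fits that each left out 1 library. Uhrf2 stands at 0.68 with its ticks between 0.61 and 0.71, while the intervals of Dnmt1, Dnmt3a, Dnmt3b and Tdg cross 0.

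Without both libraries numbered 1, the log2 fold change of Uhrf2 was 0.72 and those of Tet1, Tet2 and Tet3 were -0.20, -0.12 and 0.14. Tet1 reached its lowest adjusted p, 0.0701, without KO replicate 2, and 0.354 without both libraries numbered 1. The groups of Tet3 did not overlap without KO replicate 1, as in 11.1% of all tested genes, and without WT replicate 3, as in 10.2%. Without KO replicate 1 this rests on a near tie, KO replicate 3 at 80.61 and WT replicate 3 at 80.56 CPM.

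Levels of different genes were compared as CPM per kilobase (kb) of the longest coding transcript. On this scale Uhrf2 was first in both groups, at 25.1 ± 0.63 in KO and 15.7 ± 1.48 CPM per kb in WT libraries (SD, n = 4 each). Dnmt1 and Dnmt3a came next and on this scale did not differ beyond their spread, at 12.89 ± 0.37 and 12.99 ± 0.89 CPM per kb in KO and at 13.2 ± 0.39 and 12.6 ± 0.58 CPM per kb in WT libraries. Tet3 followed at 7.54 ± 0.44 in KO and 6.91 ± 0.35 CPM per kb in WT libraries, then Tet2 at 4.59 ± 0.11 in KO and 5.05 ± 0.31 CPM per kb in WT libraries. Tdg stood at 3.42 ± 0.34 in KO and 3.28 ± 0.24 CPM per kb in WT libraries. Tet1 was low at 1.30 ± 0.08 in KO and 1.51 ± 0.05 CPM per kb in WT libraries, and Dnmt3b lowest at 0.252 ± 0.055 in KO and 0.297 ± 0.046 CPM per kb in WT libraries.

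The order depends on the length used. The only annotated coding transcript of Uhrf2 has 3536 bases, while the exons of all its transcripts cover 8590. Per kb of all annotated exonic bases, Uhrf2 averaged 10.3 ± 0.26 in KO and 6.45 ± 0.61 CPM per kb in WT libraries, against 10.3 ± 0.29 in KO and 10.5 ± 0.31 CPM per kb in WT libraries for Dnmt1. On that scale Dnmt3a, at 7.56 ± 0.52 in KO and 7.35 ± 0.34 CPM per kb in WT libraries, stood below Dnmt1 in both groups by more than their spread and above Uhrf2 in WT libraries. Tet1 and Dnmt3b were the lowest on that scale. Per kb of the median coding transcript, a measure that short partial models lower to 814 bases for Dnmt3a and 567 for Tet1, the means over all 8 libraries were 152 for Dnmt3a and 35.6 for Tet1, above 20.4 CPM per kb for Uhrf2. The order above therefore holds for the longest coding transcript only.

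**Figure D3:**
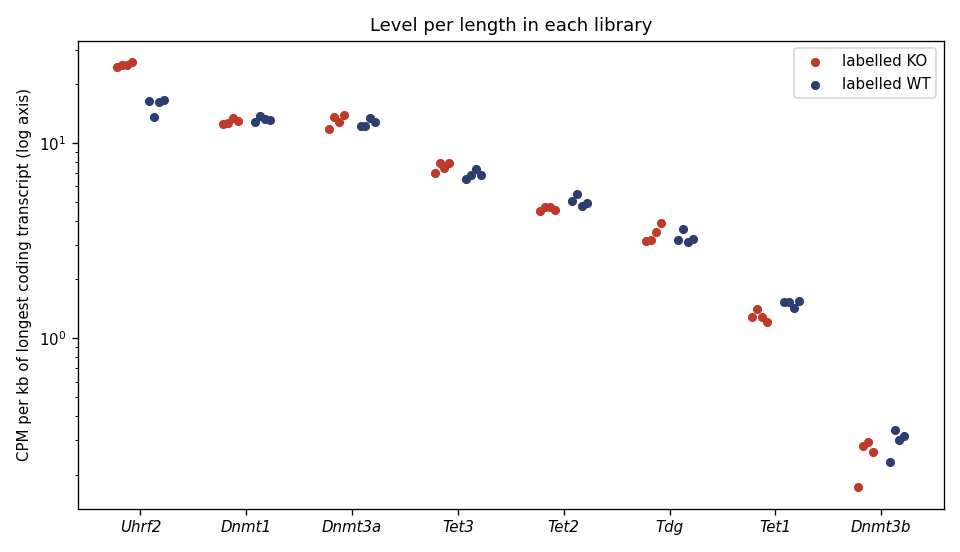
Level per kb of the longest coding transcript (log axis) of each gene in each library, labelled KO in red on the left and WT in blue on the right of each gene. Dnmt1 and Dnmt3a lie together near 13 CPM per kb, Tet1 lies between 1.22 and 1.55 CPM per kb, and Dnmt3b lies below all others.

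Within the TET family, the shares of Tet3 and Tet1 in the summed level per kb of the longest coding transcript did not overlap between the groups, while the sums did. The sum was 13.4 ± 0.53 in KO and 13.5 ± 0.30 CPM per kb in WT libraries (SD, n = 4 each). Tet3 made up 54.7%, 56.3%, 55.4% and 57.9% of it in KO replicates 1 to 4, against 49.8%, 49.4%, 54.4% and 51.6% in WT replicates 1 to 4. Tet1 made up 8.93% to 10.1% in KO and 10.5% to 11.7% in WT libraries. The share of Tet2, 33.1% to 35.2% in KO and 35.1% to 39.6% in WT libraries, overlapped. The ratio of Tet3 to Tet1 was 5.44 to 6.48 in KO and 4.27 to 5.16 in WT libraries. The length used scales this ratio alike in every library, so it does not alter the order of the libraries. The size of a share does depend on it. Per kb of the median coding transcript Tet3 made up 23.7% to 26.8% in KO and 19.8% to 23.0% in WT libraries, and Tet1 57.1% to 60.3% in KO and 61.5% to 64.1% in WT libraries. The sum was then 55.6 ± 2.56 in KO and 60.7 ± 1.24 CPM per kb in WT libraries. These shares and this ratio were formed after the values of the genes were known and carry no test. How often shares or ratios of other genes do not overlap was not computed. The level of Tet3 itself overlapped between the groups.

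Among the DNA methyltransferases the shares overlapped between the groups. Per kb of the longest coding transcript, Dnmt3a made up 48.1% to 51.1% in KO and 46.4% to 49.7% in WT libraries, Dnmt1 most of the rest, and Dnmt3b 0.704% to 1.11% in KO and 0.928% to 1.30% in WT libraries. Over all 8 libraries, Dnmt3a and Dnmt1 averaged 41.3% and 57.5% per kb of all exonic bases, and 91.4% and 8.44% per kb of the median coding transcript.

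**Figure D4:**
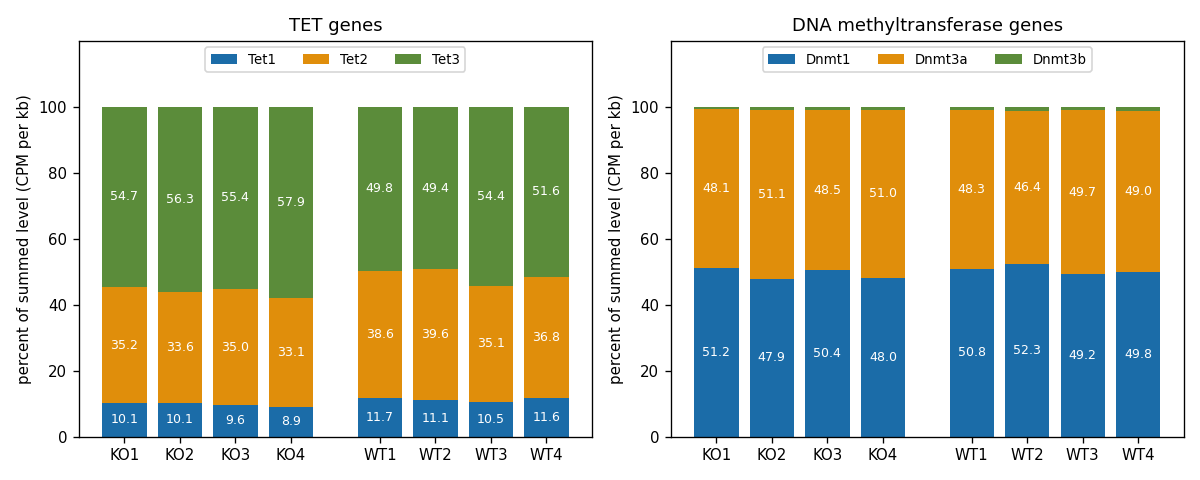
Percent of the summed level (CPM per kb of the longest coding transcript) that each TET gene (left panel) and each DNA methyltransferase gene (right panel) makes up in each library, with the 4 libraries labelled KO left of the 4 labelled WT. The Tet3 segment is 54.7% or more in KO and 54.4% or less in WT libraries, while the right panel shows Dnmt1 and Dnmt3a near equal in all 8 at this choice of length.

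The wider pathway was read from lists of partners. Of 15 tested partners of methylation maintenance and of the de novo enzymes, none passed edgeR's test (2 had an unadjusted p under 0.05, and DESeq2 called 0). Over all tested genes, 1.43% were called and 12.6% had an unadjusted p under 0.05. Of the 15 log2 fold changes, 4 were positive and 11 negative, with a median of -0.03. Nsd1, a histone methyltransferase whose mark recruits DNMT3A, had 181 ± 8.31 CPM in KO and 194 ± 2.14 CPM in WT libraries (SD, n = 4 each, adjusted p = 0.321 by edgeR). Suv39h1, which writes the heterochromatin mark that UHRF1 reads, had 27.7 ± 0.68 CPM in KO and 30.4 ± 1.44 CPM in WT libraries (adjusted p = 0.367). In these 2 of the 15 genes all KO libraries were below all WT libraries, as in 3.4% of all tested genes.

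Of 11 tested cofactors and partners of the TET enzymes, 4 log2 fold changes were positive and 7 negative, at a median of -0.04. An unadjusted edgeR p under 0.05 was found in 3, and in 1 all KO libraries were below all WT libraries. The test called 1 gene higher and none lower. That gene was Cxxc5, which encodes a CXXC protein that binds unmethylated CG and TET2, at 99.3 ± 1.47 CPM in KO and 82.5 ± 3.15 CPM in WT libraries (SD, n = 4 each, log2 fold change 0.27, SE 0.04, adjusted p = 0.00223 by edgeR). Of 18 tested genes of base excision repair and the GADD45 family, 10 log2 fold changes were positive and 8 negative, at a median of 0.01. An unadjusted edgeR p under 0.05 was found in 2. Only Gadd45b was called higher, and none was called lower. Gadd45b, an activity-induced gene tied to demethylation, was at 17.0 ± 2.89 CPM in KO and 8.98 ± 1.51 CPM in WT libraries (log2 fold change 0.91, SE 0.13, adjusted p = 0.00161). Both genes were above every WT library in all 4 KO libraries and passed in each fit that left out 1 library. Over all tested genes, 12.6% had an unadjusted p under 0.05, 1.14% were called higher and 0.289% lower. In 4.28% all KO libraries were above all WT libraries, and in 3.4% all were below. Cxxc5 and Gadd45b are each a single gene of their list.

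Of 15 tested genes of the methyl donor cycle, which supplies S-adenosylmethionine, none passed edgeR's test (0 had an unadjusted p under 0.05, and DESeq2 called 0), at a median of -0.01. The shares over all tested genes were 1.43% called and 12.6% with an unadjusted p under 0.05. Ahcy, the hydrolase that removes S-adenosylhomocysteine, had 9.03 ± 0.29 CPM in KO and 7.87 ± 0.70 CPM in WT libraries (SD, n = 4 each, adjusted p = 0.433 by edgeR). Its KO libraries were all above its WT libraries, the 1 such gene of the 15, against 4.28% of all tested genes. The polyamine enzyme Amd1 had 31.2 ± 1.33 CPM in KO and 29.2 ± 1.77 CPM in WT libraries (adjusted p = 0.573).

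Dividing cells are known for high Dnmt1 and Uhrf1. Their 16 markers found here summed to 106 to 110 CPM in KO and 101 to 108 CPM in WT libraries. Of 15 tested none passed, against 1.43% of all tested genes (DESeq2 called 0). An unadjusted edgeR p under 0.05 was found in 0, against 12.6% of all tested genes. Mcm5 and Mcm7, subunits of the replicative helicase, were at 0.20 (SE 0.12) and 0.12 (SE 0.07) in log2 fold change. For Mcm7, 1 of the 15, all KO libraries were above all WT libraries, as in 4.28% of all tested genes.

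Markers of other cell types are given beside Tet1 and Tet2, and none of them passed the test, against 1.43% of all tested genes. An unadjusted edgeR p under 0.05 was found in 4 of 5 endothelial and 2 of 5 microglial markers, against 12.6% of all tested genes. It was found in 1 of 5 for each of neurons, astrocytes and oligodendrocytes. The lists of oligodendrocyte precursors, choroid plexus, red blood cells and cerebellum had 0. The log2 fold change was negative in 5 of 5 endothelial markers (median -0.18), and their summed level was 150 to 172 CPM in KO and 168 to 191 CPM in WT libraries. Microglial markers were negative in 4 of 5, with a median of -0.09. Their sum was 187 to 197 CPM in KO and 201 to 220 CPM in WT libraries, which did not overlap. How often such a sum does not overlap was not computed. Choroid plexus markers were negative in 4 of 4 (median -0.12), those of astrocytes and of oligodendrocytes in 4 of 5 each (medians -0.04 and -0.05), of oligodendrocyte precursors in 2 of 3 (-0.09) and of cerebellum in 3 of 4 (-0.09). Markers of red blood cells were positive in 4 of 5 (0.09) and neuronal markers in 5 of 5 (0.04). No marker of these lists was at 0 in all libraries. Among microglial and endothelial markers the lowest values were -0.26 (SE 0.07) for P2ry12 of microglia and -0.23 (SE 0.08) for Tek of endothelium. For P2ry12 and Tek all KO libraries were below all WT libraries, as in 3.4% of all tested genes. In the other tested markers of these lists the groups overlapped. In RNA from brain tissue, fewer cells of a type and less RNA per cell cannot be told apart. The part of these cells in the Tet1 and Tet2 values was not tested.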

How the data were processed

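The deposited table holds estimated counts per gene (expected counts), with 1 column for each library and no scaling between them, per the file headers. Of all values 91.5% were whole within 0.001, as were all 64 values of the 8 genes described. Per the submitters' processing notes, TopHat2 2.0.9, edgeR and the build GRCm38 (mm10) were named, with no role. Which program counted, and whether by strand, is not given in the sources used here.

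Counts were rounded and genes kept by edgeR's filterByExpr, which left 15902. Library sizes were scaled by TMM, and KO was compared with WT by the robust quasi-likelihood test (edgeR 4.0.16, R 4.3.3; group as only term; Benjamini-Hochberg over all tested genes). CPM values use the same scaling. SE was taken from the coefficient and its F statistic. The test was checked on simulated data. Libraries within a group were further apart than sampling noise (chi-square per degree of freedom 2.43 to 4.91), so all were kept. Intervals and the floor of 3 counts describe count noise and the spread between libraries only.

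The members, the lists, the tests and the naming rule were chosen with earlier results of these data known. The rule takes the 9 members, the called or 2 lowest-p genes of each list, 2 neighbours on either side of Uhrf2 and 5 genes of like profile; some marker genes it takes are given by list only. Positions and lengths are from GENCODE M21, and promoters from RefSeq. Alternatives were other scalings, filters, DESeq2 1.42.0, limma-voom 3.58.1, a replicate block and left-out libraries.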

Additional observations from a re-analysis of the deposited data

Results flagged for a closer look

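A library was singled out where, within a group of 4, its gap to the nearest other library divided by the range of the group passed the 95% critical value of Dixon's test, which chance alone gives in about 1 in 20 groups. Of 88 groups examined over 44 named genes, 8 were singled out. For Uhrf2, WT replicate 2 stood at 47.7 CPM and the other WT libraries between 57.2 and 58.9 CPM; without it the log2 fold change was 0.61. For Tet1, WT replicate 3 stood at 20.6 CPM and the others between 22.0 and 22.3 CPM; without it the log2 fold change was -0.24. Nsd1 was at 169 CPM in KO replicate 1 and between 185 and 186 CPM in the other KO libraries. Mcm7 was at 17.8 CPM in WT replicate 2 and between 18.6 and 18.8 CPM in the other WT libraries. Ranbp6 was at 59.6 CPM in KO replicate 2 and between 67.5 and 67.8 CPM in the other KO libraries. In WT replicate 1 the astrocyte water channel Aqp4 was at 284 CPM (others between 248 and 252), the choroid plexus gene Kl at 38.8 CPM (others between 29.2 and 30.4) and Prkg1 at 12.6 CPM (others between 9.74 and 10.2).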

How the results depend on the processing

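Over 16 alternatives, Uhrf2 passed the threshold in every one, at log2 fold changes of 0.61 to 0.72, and it was the only member called in each. Over the 8 genes, 127 of 128 refitted values kept their direction and their side of the threshold. The exception was Tdg, between -0.0033 and 0.11 over the fits without 1 library. Leaving out 1 library gave 0.61 to 0.71 for Uhrf2, 110 to 324 called genes (228 with all 8), 1 called member throughout, and 3 to 4 members whose groups did not overlap, where 10.2% to 14.0% of all tested genes did not. That count of members cannot fall when a library is left out. The lowest count of genes, 110, came without WT replicate 3, then 130 without KO replicate 3 and 146 without KO replicate 4, and the highest without KO replicate 2. With the replicate number as a block, 495 genes were called, and Uhrf2 stood at 0.68. Same-numbered libraries deviated together in 3 of 4 pairs, with correlations of -0.007 to 0.34 across genes (other pairs -0.25 to 0.28), and the labels give no shared litter, batch or day, so the block was kept as an alternative only. It changed the call of no member. Per kb of the median coding transcript, which counts partial models, the means over 8 libraries were 14.0 CPM per kb for Dnmt1, 152 for Dnmt3a, 35.6 for Tet1, 9.32 for Tet2, 13.2 for Tet3 and 12.1 for Tdg. Per kb of all exonic bases, a choice made after seeing the data, they were 8.40 for Uhrf2, 10.4 for Dnmt1, 7.45 for Dnmt3a, 1.31 for Tet1, 2.62 for Tet2, 4.72 for Tet3 and 2.18 for Tdg. Depth limits Dnmt3b most.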
